A study of Mus musculus with 547 samples.

Results

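The 29 genes described here are transcripts of blood cells that were counted in liver cells sorted as hepatoblasts, hepatocytes or cholangiocytes. They were chosen by name, as every row of the read count tables whose symbol is on a fixed list, and they are 29 of the 40824 genes in those tables. They comprise 7 globins, 8 other red cell genes, 4 neutrophil granule enzymes, 2 genes of leukocytes in general, and 8 macrophage and myeloid genes. The mouse fetal liver series holds 547 RNA-seq samples, of which 18 are bulk libraries and 529 are single cells. The 18 bulk libraries come from cells sorted on the surface protein DLK1, with 2 libraries at each of 9 embryonic days, E10.5 to E18.5, and each was made from a large pool of sorted cells. The 447 embryo cells were sorted on DLK1 or on EpCAM at E10.5, E11.5, E12.5, E13.5, E14.5, E15.5 and E17.5, picked by hand under a microscope and amplified 1 cell at a time without molecular identifiers. The other 82 cells were picked in the same way from lobes of E12.5 liver that had been kept in culture for 2 days, with 0.5 µM TPPB, 10 µM U0126, both, or the DMSO carrier alone as control. TPPB activates protein kinase C and U0126 inhibits the kinases MEK1 and MEK2. Of the embryo cells, 251 came from the DLK1 gate and 196 from the EpCAM gate, 102 of them labelled as putative cholangiocytes and the others as hepatoblasts or hepatocytes. Explant cholangiocytes of the EpCAM gate number 22 with TPPB, 13 with U0126, 9 with both and 22 controls, and DLK1-sorted explant cells 6 with TPPB and 6 controls, beside 2 EpCAM+ hepatoblasts each with U0126 and in controls. Titles carry a set number, and the sources used here do not say what a set was. The labels name no strain, allele or transgene, and they do not say how the putative types were assigned or how many animals a sample came from.

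Fetal liver is the main site of blood formation in the mouse embryo before the bone marrow takes over, and hepatoblasts lie among far more numerous developing red cells, granulocytes and macrophages. The first red cells come from the yolk sac and use embryonic globins, the ζ chain of Hba-x and the εy and βh1 chains of Hbb-y and Hbb-bh1. Red cells made in the liver use the adult α chains of Hba-a1 and Hba-a2 and the adult β chains of Hbb-bs and Hbb-bt. Granule enzymes are transcribed in immature neutrophils and monocytes, and receptors such as that encoded by Csf1r and surface proteins such as that of Emr1 (F4/80) are carried by macrophages, which settle in the liver as Kupffer cells.

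The globins are the members whose identity changes with the day, so the 130 bases just before the transcription start of 2 embryonic and 4 adult globin genes are shown, from RefSeq on build GRCm38.p6, where 24 of the 29 members were in the promoter table. Capitals mark, on either strand and also where matches touch, the letters CACCC (as in the box that red cell Krüppel-like factors bind), CCAAT (the box of that name), GATAA (the core that GATA factors bind) and ATAAA (part of the TATA box). Hba-x (chr11:32276470-32276599, plus strand), Hba-a1 (chr11:32283542-32283671, plus strand) and Hba-a2 (chr11:32296362-32296491, plus strand) belong to the α cluster. Hbb-y (chr7:103853208-103853337, minus strand), Hbb-bs (chr7:103827929-103828058, minus strand) and Hbb-bt (chr7:103813924-103814053, minus strand) belong to the β cluster.
Hba-x: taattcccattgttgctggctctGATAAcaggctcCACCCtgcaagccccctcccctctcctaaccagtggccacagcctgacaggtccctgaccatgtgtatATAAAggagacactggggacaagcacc
Hbb-y: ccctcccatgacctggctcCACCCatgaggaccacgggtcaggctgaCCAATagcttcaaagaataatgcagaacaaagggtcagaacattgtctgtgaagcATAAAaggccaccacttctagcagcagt
Hba-a1: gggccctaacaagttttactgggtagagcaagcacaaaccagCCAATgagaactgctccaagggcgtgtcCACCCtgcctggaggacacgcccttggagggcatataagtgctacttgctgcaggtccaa
Hba-a2: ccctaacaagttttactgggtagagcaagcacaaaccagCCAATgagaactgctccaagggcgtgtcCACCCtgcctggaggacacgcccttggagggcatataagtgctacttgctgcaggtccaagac
Hbb-bs: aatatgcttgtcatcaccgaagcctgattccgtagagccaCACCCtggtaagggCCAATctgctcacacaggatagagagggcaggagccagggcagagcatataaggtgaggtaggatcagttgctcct
Hbb-bt: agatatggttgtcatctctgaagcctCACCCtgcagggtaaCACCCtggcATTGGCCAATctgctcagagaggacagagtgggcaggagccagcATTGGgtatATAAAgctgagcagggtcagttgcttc
CACCC was found in all 6 windows, against 33.2% of the same windows of 27025 genes. CCAAT was in 5 of the 6, against 23.2% of all windows, and was not in that of Hba-x. GATAA was in the Hba-x window alone, against 11.7% of all windows, and ATAAA was in those of Hba-x, Hbb-y and Hbb-bt, against 22.3%. The Hba-a1 and Hba-a2 windows were identical over the 127 bases that they shared after a shift of 3 bases, whereas Hbb-bs and Hbb-bt had the same base at 96 of 129 positions, Hbb-y and Hbb-bs at 42 of 120, and Hba-x and Hba-a1 at 41 of 130. A match is a match of letters, and a window without one says nothing about the factors that bind there. The adult pairs are also close in their transcripts: 67.5% of the 50-base words of Hba-a1 occur in Hba-a2 and 65.8% of those of Hbb-bs occur in Hbb-bt. The embryonic genes share no such word with another globin. Reads could therefore move within an adult pair or be lost from its count, which was not tested. The split inside a pair is uncertain, and adult levels may be too low beside embryonic ones.

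Bulk libraries held 14385574 to 22791119 reads in genes, and cells 763480 to 2111839 with a median of 1098050, and no cell was a copy of another. Levels are given as counts-per-million (CPM) of the reads in genes. In bulk they were rescaled by the trimmed mean of M values (TMM), with factors from 0.55 in E18.5 library 1 to 1.59 in E10.5 library 2. Markers of the labelled type were present in every bulk library. Alb and Afp, the albumin and α-fetoprotein genes, took 2.28% to 2.76% of reads in the E10.5 libraries, 9.26% to 14.2% at E14.5 and 19% to 19.6% at E18.5. The sort marker Dlk1 averaged 431 ± 12 TMM CPM at E18.5 and 3234 ± 253 at E16.5 (SD, n = 2 each). In picked cells of E14.5 to E17.5, all 8 cholangiocyte markers listed were higher and all 8 hepatoblast and hepatocyte markers lower in labelled cholangiocytes than in DLK1-sorted cells. The sort markers Epcam and Dlk1 are among them, and how the types were assigned is not given, so this is no independent check of the labels. Explant cells labelled as cholangiocytes had a median Alb level of 6.22 CPM with TPPB and 18237 CPM in controls. Median Afp was 59.5 and 66377 CPM, Dlk1 37.1 and 284, and Spp1 10283 and 0.881, in the same order. DLK1-sorted controls had medians of 89417, 298 and 2.81 for these 3 genes. Epcam, Krt19 and Sox9 had medians of 165, 161 and 38.7 in control cholangiocytes and 0 in DLK1-sorted controls. TPPB and control cholangiocytes thus differed in marker profile. Genes of stellate cells and mesenchyme summed to 8.97 and 106 TMM CPM at E18.5, against 748 and 967 at E10.5. For every bulk value below, fewer cells of a type and less RNA per cell cannot be told apart.

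Together the members took 88.6 to 923 TMM CPM of a bulk library. Over the 9 stages, 27 of the 28 members tested differed by edgeR's quasi-likelihood test at a Benjamini-Hochberg adjusted p of 0.05, where 79.8% of all genes tested did, so that share is close to the background. Hba-a2 did not pass, and Vsig4, a complement receptor of resident macrophages, was too low to test, at 0 to 0.337 TMM CPM. From E10.5 to E11.5 the members moved in 1 direction: 21 were higher at E11.5 and 0 lower, against 9.55% of all genes higher and 3.82% lower, with a median log2 change of 2.68 for the members and 0.01 for all genes. Genes of other cells moved in the same step. Those of hepatoblasts and hepatocytes summed to 56389 and 49635 TMM CPM for E11.5, against 21342 and 17547 for E10.5 (5 of 8 higher). Those of stellate cells and mesenchyme summed to 350 and 197, against 748 and 967 (1 of 8 lower), and those of cholangiocytes to 37.1 and 38.9, against 92.6 and 112 (3 of 8 lower). Their part in the members' change was not tested. At E14.5 against E11.5, 14 were higher and 3 lower (9.84% and 5.41% of all genes), with medians of 1.59 and 0.03. At E16.5 against E14.5, 0 were higher and 6 lower (6.27% and 2.8% of all genes), with medians of -0.42 and -0.05. At E18.5 against E16.5, 1 was higher and 3 lower (13.1% and 13.2% of all genes), with medians of -0.54 and -0.01. The p-values measure the spread between 2 libraries a stage and its pooled estimate over all 18, and whether the 2 libraries came from separate litters is not given in the labels.

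**Figure D1:**
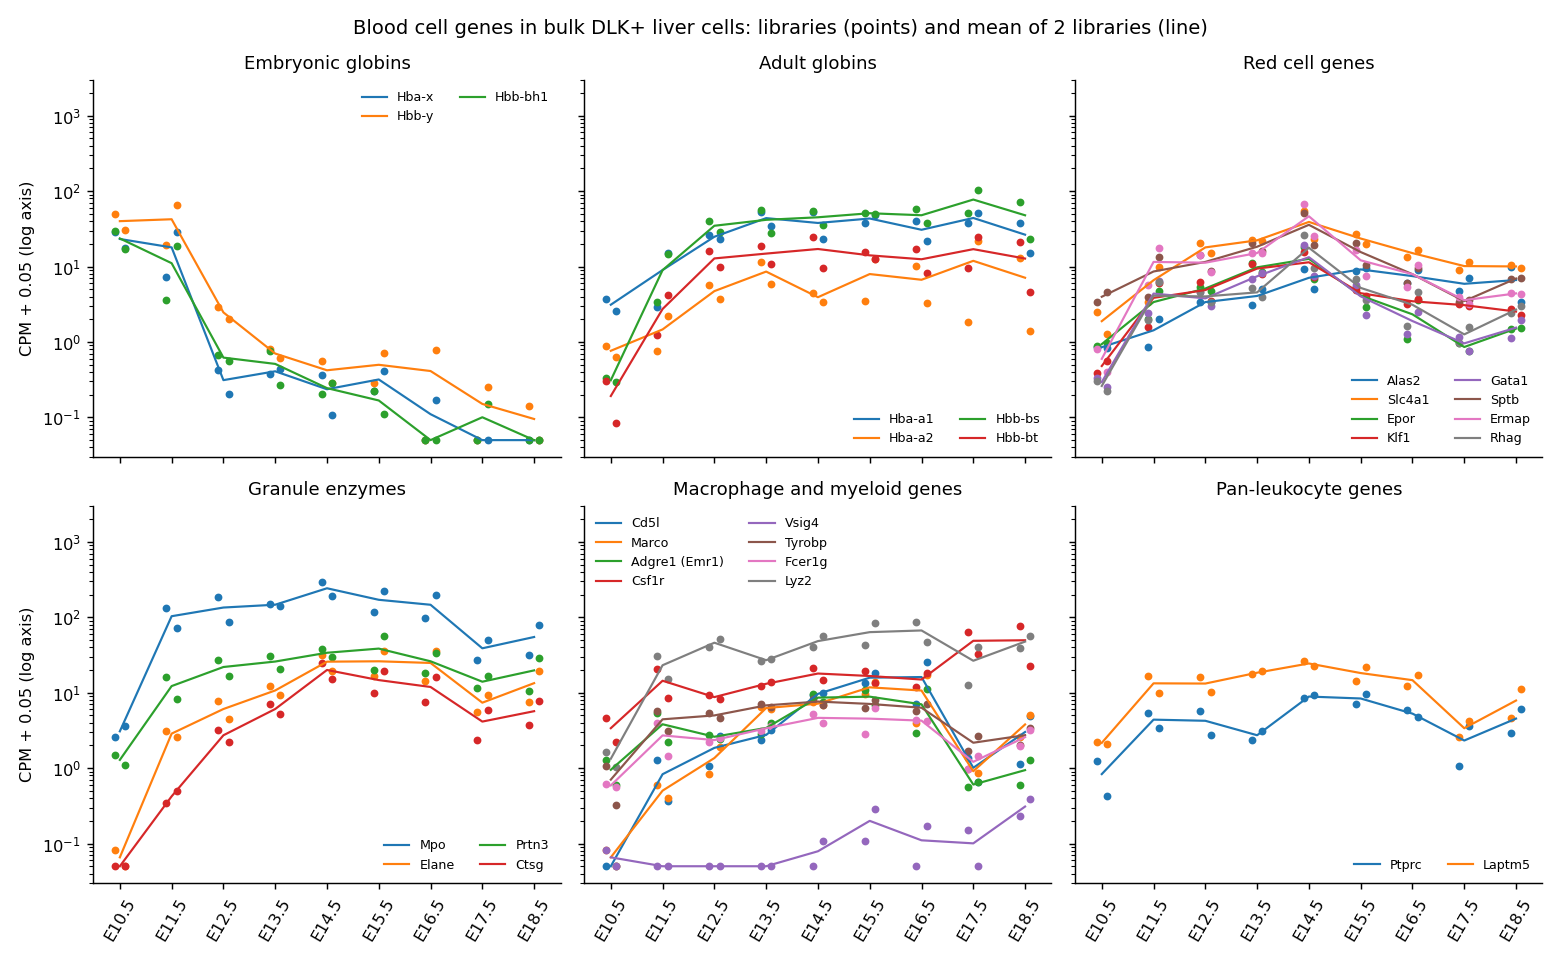
Level of each member in bulk DLK1-sorted liver cells (TMM CPM plus 0.05, log axis) by embryonic day, in 6 panels by kind of gene, with points for the 2 libraries of a day and a line through their mean. Embryonic globins leave the range of the adult ones after E11.5, Mpo reaches 294 and 191 CPM at E14.5, and Csf1r stands highest at E17.5 and E18.5.

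The embryonic globins were replaced by the adult ones between E11.5 and E12.5, while the summed globin level had no such step. All globins summed to 113 and 68.5 CPM on E10.5, 38.1 and 148 on E11.5, 92.4 and 68.0 on E12.5, 141 and 79.7 on E13.5 and 136 and 72.4 on E14.5. At the later stages they summed to 110 and 124 CPM on E15.5, 124 and 71.8 on E16.5, 100 and 200 on E17.5 and 144 and 44.1 on E18.5. The 2 libraries of a day differed by as much as the days did, most at E11.5. Of the globin reads, the embryonic genes made up 95.6% and 95.1% on E10.5, 78.9% and 75.8% on E11.5, 4.21% and 3.84% on E12.5, 1.26% and 1.47% on E13.5, and 0.720% and 0.721% on E14.5. The libraries of a day lay close to each other in this share, also where their summed levels lay far apart. At E16.5 the libraries had 0 embryonic reads of 2247 (exact 95% interval up to 0.164%) and 14 of 1190 (0.645% to 1.97%). Such intervals cover counting error only.

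Hbb-y, the εy chain, had 49.5 and 30.4 CPM on E10.5, 19.2 and 65.5 on E11.5, 2.89 and 1.94 on E12.5, 0.748 and 0.557 on E13.5 and 0.511 and 0.232 on E14.5. Hba-x, the ζ chain, had 28.7 and 17.6 CPM on E10.5, 7.19 and 28.6 on E11.5, 0.371 and 0.153 on E12.5, 0.327 and 0.390 on E13.5 and 0.315 and 0.0580 on E14.5. Hbb-bh1, the βh1 chain, had 30.0 and 17.1 CPM on E10.5, 3.60 and 18 on E11.5, 0.630 and 0.512 on E12.5, 0.702 and 0.223 on E13.5 and 0.157 and 0.232 on E14.5. All 3 were high in the E10.5 libraries and in both E11.5 libraries, and from E12.5 on every library lay under 3 CPM for each of them. From E15.5 to E18.5 no library had more than 0.724 CPM of any of them. E14.5 lay below E11.5 by log2 -6.73 ± 0.79 for Hbb-y (adjusted p = 5.05e-05, edgeR), -6.40 ± 0.80 for Hba-x (0.00018) and -5.82 ± 0.84 for Hbb-bh1 (0.000517, SE throughout). Each stayed past the threshold with any 1 of the 4 libraries left out, with log2 changes of -7.53 to -5.65, -8.17 to -5.15 and -6.64 to -4.25. Between E10.5 and E11.5 none of the 3 passed, and their values at E11.5 differed between the libraries more than the stages did.

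Hbb-bs, the major adult β chain by these reads, had 0.281 and 0.241 CPM on E10.5, 3.30 and 14.6 on E11.5, 40.7 and 28.7 on E12.5, 55.4 and 27.9 on E13.5 and 53.9 and 36.1 on E14.5. Later it had 51.8 and 50.0 CPM on E15.5, 57.7 and 38.0 on E16.5, 51.8 and 103 on E17.5 and 72.6 and 23.1 on E18.5. It was almost without reads at E10.5 and did not overlap between E10.5 and any later stage. It was higher at E11.5 than at E10.5 (log2 5.06 ± 0.87, adjusted p = 0.0013, edgeR) and higher at E14.5 than at E11.5 (log2 2.33 ± 0.60, p = 0.017). Hbb-bt, the other adult β gene, had 0.25 and 0.0345 CPM on E10.5, 1.2 and 4.18 on E11.5, 15.8 and 9.72 on E12.5, 18.8 and 10.9 on E13.5 and 24.7 and 9.39 on E14.5. Later it had 15.6 and 12.4 CPM on E15.5, 16.8 and 8.09 on E16.5, 9.50 and 24.4 on E17.5 and 20.8 and 4.61 on E18.5. It was likewise almost without reads at E10.5, and it passed in the same steps, with log2 changes of 4.15 ± 1.08 (adjusted p = 0.0193, edgeR) at E11.5 and 2.65 ± 0.74 (p = 0.0256) at E14.5. Hba-a1, an adult α gene, had 3.62 and 2.52 CPM on E10.5, 2.85 and 15 on E11.5, 26.4 and 23.2 on E12.5, 53.6 and 34.1 on E13.5 and 52.5 and 23.1 on E14.5. Later it had 38.2 and 48.4 CPM on E15.5, 39.7 and 21.7 on E16.5, 37.3 and 50.8 on E17.5 and 37.8 and 15.1 on E18.5. It was already present at E10.5 and passed the test at E14.5 against E11.5 alone (log2 2.07 ± 0.60, adjusted p = 0.0298, edgeR). Hba-a2 had 0.586 to 2.14 CPM at E10.5 and E11.5 and 1.35 to 21.9 from E12.5 on. The calls for Hbb-bs, Hbb-bt and Hba-a1 at E14.5 against E11.5 did not survive without E11.5 library 1 or without E14.5 library 1, with log2 changes from 1.54 to 3.72, 1.73 to 3.77 and 1.25 to 3.68 over the 4 left-out libraries. At E11.5 against E10.5 the call for Hbb-bs held in each such fit (3.60 to 5.77), and that for Hbb-bt was lost in 3 of 4 (2.95 to 6.05).

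On the TPM scale, which divides reads by transcript length, Hbb-y was at 280 and 182 TPM at E10.5. At E14.5 Hba-a1 was at 184 and 71.3 TPM, Hbb-bs at 170 and 99.9, and the granule enzyme gene Mpo at 262 and 150. In both E14.5 libraries the granule enzyme thus stood above the 2 adult globin genes per length, in counts that may miss reads shared within an adult pair. The ratio of Hbb-bs to Gata1 in TPM was 2.65 ± 0.29 at E10.5, 9.39 ± 3.53 at E14.5, 235 ± 171 at E17.5, with 96.3 ± 94.5 at E18.5 (SD, n = 2 each). Gata1 encodes a factor of red cell precursors, and globin RNA lasts into cells that no longer make it. The E17.5 and E18.5 libraries spread almost as widely as their means, and this ratio was not tested.

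**Figure D2:**
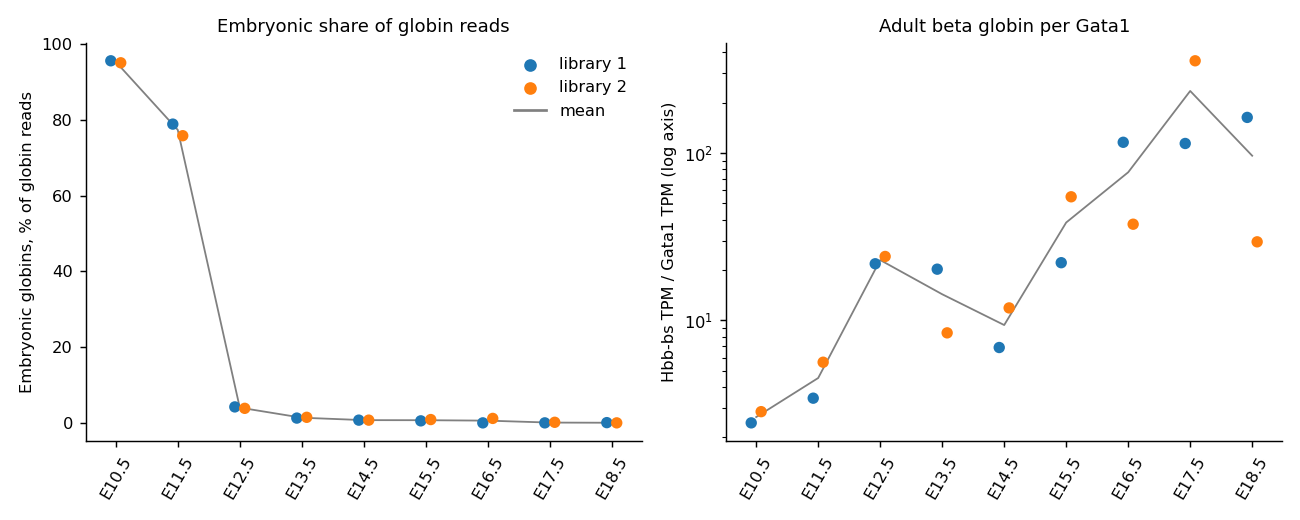
Left, share of globin reads from Hba-x, Hbb-y and Hbb-bh1 (percent) in the 2 bulk libraries of each embryonic day, with a line through the mean; it is above 95% in both E10.5 libraries, 4.21% and 3.84% at E12.5 and at most 1.18% from E14.5 on. Right, ratio of Hbb-bs to Gata1 in TPM (log axis), whose mean is 2.65 for E10.5 and 235 for E17.5, from libraries with 6 to 11 Gata1 reads.

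In sum the other red cell genes were highest at E14.5, and 6 of the 8 were lower at E16.5. The 8 genes summed to 9.09 and 8.69 CPM on E10.5, 21.3 and 65.7 on E11.5, 72.8 and 50.3 on E12.5, 95 and 86.1 on E13.5 and 262 and 104 on E14.5. Later they summed to 95.8 and 59.8 CPM on E15.5, 37.8 and 59.8 on E16.5, 27.0 and 30.8 on E17.5 and 39.0 and 32.8 on E18.5. E14.5 library 1 stood far above all other libraries, and E14.5 library 2 was next. Library 1 also differed from library 2 in genes of stellate cells and mesenchyme, at 830 against 168 TMM CPM in sum, and of hepatoblasts and hepatocytes, at 85217 against 152988, and their part in the red cell values was not tested. Of the 8, 6 were higher at E11.5 than at E10.5 (median log2 change 2.52), 7 higher at E14.5 than at E11.5 (median 2.04), and 6 lower at E16.5 than at E14.5 (median -2.33). None of the 8 passed at E18.5 against E16.5, with a median of -0.38.

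Gata1, a transcription factor that red cell precursors need, had 0.281 and 0.207 CPM on E10.5, 2.35 and 6.32 on E11.5, 4.56 and 2.92 on E12.5, 6.69 and 8.08 on E13.5 and 19.1 and 7.42 on E14.5. Later it had 5.72 and 2.23 CPM on E15.5, 1.22 and 2.47 on E16.5, 1.11 and 0.707 on E17.5 and 1.09 and 1.91 on E18.5. The E14.5 libraries lay above those of every stage other than E13.5, whose library 2 exceeded E14.5 library 2. Its log2 change was 4.11 ± 0.69 at E11.5 against E10.5 (adjusted p = 0.00113, edgeR) and -2.85 ± 0.59 at E16.5 against E14.5 (p = 0.00968). Klf1, which switches on adult β globin, had 0.343 and 0.517 CPM on E10.5, 1.55 and 6.05 on E11.5, 6.19 and 3.48 on E12.5, 10.9 and 7.86 on E13.5 and 15 and 7.25 on E14.5. Later it had 4.79 and 3.98 CPM on E15.5, 3.15 and 3.68 on E16.5, 3.13 and 2.93 on E17.5 and 2.72 and 2.25 on E18.5. It passed in all 3 steps, with log2 changes of 3.14, 1.58 and -1.74. Epor, the erythropoietin receptor, had 0.843 and 0.931 CPM on E10.5, 1.95 and 4.72 on E11.5, 5.37 and 4.76 on E12.5, 11.1 and 8.30 on E13.5 and 18.4 and 6.84 on E14.5. Later it had 5.31 and 2.84 CPM on E15.5, 1.05 and 3.50 on E16.5, 0.909 and 0.707 on E17.5 and 1.45 and 1.46 on E18.5. It changed by log2 1.91 ± 0.58 at E11.5 (adjusted p = 0.0423, edgeR), 1.92 at E14.5 and -2.48 at E16.5.

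Slc4a1, the anion exchanger band 3 of the red cell membrane, had 2.44 and 1.24 CPM on E10.5, 3.30 and 9.79 on E11.5, 20.6 and 15.2 on E12.5, 22.7 and 21.8 on E13.5 and 55.0 and 23 on E14.5. Later it had 27.3 and 19.7 CPM on E15.5, 13.3 and 16.7 on E16.5, 8.89 and 11.3 on E17.5 and 10.4 and 9.56 on E18.5. It was higher at E11.5 (log2 1.83 ± 0.49, adjusted p = 0.022, edgeR) and at E14.5 (2.57 ± 0.46, p = 0.00147), and unlike Gata1 it did not pass at E16.5. Ermap, an erythroid membrane protein, had 0.749 and 0.345 CPM on E10.5, 5.60 and 17.4 on E11.5, 14 and 8.44 on E12.5, 14.9 and 15.3 on E13.5 and 67.4 and 25.4 on E14.5. Later it had 16.6 and 7.54 CPM on E15.5, 5.37 and 10.4 on E16.5, 3.94 and 3.13 on E17.5 and 4.44 and 4.27 on E18.5. Its changes were log2 4.36 ± 0.67 at E11.5 (adjusted p = 0.000603, edgeR), 2.01 at E14.5 and -2.56 at E16.5. Rhag, the Rh-associated glycoprotein, had 0.25 and 0.172 CPM on E10.5, 1.90 and 6.23 on E11.5, 4.56 and 3.38 on E12.5, 5.10 and 3.90 on E13.5 and 26 and 9.39 on E14.5. Later it had 6.83 and 3.50 CPM on E15.5, 1.60 and 4.53 on E16.5, 0.909 and 1.51 on E17.5 and 2.36 and 2.92 on E18.5. Its changes were log2 4.22, 2.12 and -2.54 over the same steps. Sptb, erythroid β-spectrin, had 3.37 and 4.48 CPM on E10.5, 3.85 and 13.3 on E11.5, 14.2 and 8.80 on E12.5, 20.6 and 15.9 on E13.5 and 51.9 and 19.5 on E14.5. Later it had 20.5 and 10 CPM on E15.5, 6.09 and 9.66 on E16.5, 3.33 and 3.53 on E17.5 and 6.70 and 7.08 on E18.5. It did not pass at E11.5, and it was higher at E14.5 (log2 2.06) and lower at E16.5 (-2.19). Alas2, the first enzyme of haem synthesis in red cells, had 0.812 and 0.793 CPM on E10.5, 0.799 and 1.96 on E11.5, 3.34 and 3.33 on E12.5, 3.04 and 5.01 on E13.5 and 9.16 and 4.93 on E14.5. Later it had 8.70 and 9.53 CPM on E15.5, 5.97 and 8.87 on E16.5, 4.75 and 6.96 on E17.5 and 9.78 and 3.37 on E18.5. It passed at E14.5 against E11.5 alone (log2 2.34), and its highest mean was at E15.5, 9.12 ± 0.59 CPM (SD, n = 2). At E16.5 against E14.5, 0 members passed without E14.5 library 1 or without E16.5 library 1, 5 without E16.5 library 2 and 7 without E14.5 library 2.

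The granule enzymes had the highest median change of the 5 lists between E10.5 and E11.5. They summed to 3.97 and 4.59 CPM on E10.5, 154 and 83.0 on E11.5, 221 and 109 on E12.5, 200 and 178 on E13.5 and 388 and 255 on E14.5. Later they summed to 165 and 334 CPM on E15.5, 138 and 280 on E16.5, 46.2 and 82.0 on E17.5 and 52.9 and 134 on E18.5. All 4 passed, higher at E11.5 than at E10.5, with a median log2 change of 5.47. Mpo, myeloperoxidase, had 2.50 and 3.55 CPM on E10.5, 135 and 71.8 on E11.5, 183 and 85.6 on E12.5, 150 and 143 on E13.5 and 294 and 191 on E14.5. Later it had 119 and 222 CPM on E15.5, 98.2 and 195 on E16.5, 27.1 and 50.4 on E17.5 and 31.3 and 78.0 on E18.5. E10.5 stood below every other stage, and E14.5 held the highest library. Mpo was higher at E11.5 than at E10.5 (log2 5.09 ± 0.60, adjusted p = 8.93e-05, edgeR) and lower at E18.5 than at E16.5 (log2 -1.42 ± 0.50, p = 0.0498). Prtn3, proteinase 3, had 1.44 and 1.03 CPM on E10.5, 16.1 and 8.23 on E11.5, 26.9 and 16.8 on E12.5, 30.8 and 20.8 on E13.5 and 38.1 and 29.5 on E14.5. Later it had 19.7 and 57.1 CPM on E15.5, 18.3 and 33.7 on E16.5, 11.3 and 16.6 on E17.5 and 11 and 28.9 on E18.5. It rose by log2 3.29 at E11.5 and did not pass in a later step.

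Elane, neutrophil elastase, had 0.0312 and 0 CPM on E10.5, 3.10 and 2.54 on E11.5, 7.6 and 4.45 on E12.5, 12.1 and 9.19 on E13.5 and 31.9 and 19.5 on E14.5. Later it had 17 and 35.5 CPM on E15.5, 14.2 and 35.3 on E16.5, 5.46 and 9.19 on E17.5 and 7.43 and 19.2 on E18.5. Its E11.5 libraries held 119 reads against 1 in the E10.5 libraries, a ratio in TMM CPM of 171 (counting interval 30.1 to 6806), and it was higher again at E14.5 (log2 3.19). Ctsg, cathepsin G, had 0 and 0 CPM on E10.5, 0.30 and 0.445 on E11.5, 3.15 and 2.20 on E12.5, 6.92 and 5.13 on E13.5 and 24.7 and 15.2 on E14.5. Later it had 9.98 and 19.3 CPM on E15.5, 7.41 and 16.3 on E16.5, 2.32 and 5.85 on E17.5 and 3.62 and 7.65 on E18.5. It had 16 reads at E11.5 and 0 at E10.5, at least 7.66-fold higher when the floor is 3 reads over the E10.5 group, and it was higher at E14.5 than at E11.5 by log2 5.71 ± 0.64 (adjusted p = 5.51e-05, edgeR). The 4 enzymes did not appear in 1 proportion: Mpo had 43.5 and 28.3 reads for each Elane read at E11.5, 9.21 and 9.77 at E14.5 and 4.22 and 4.06 at E18.5.

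The pan-leukocyte pair and the myeloid genes rose with the granule enzymes. Laptm5, a lysosomal protein of blood cells, had 2.19 and 2.03 CPM on E10.5, 16.6 and 9.92 on E11.5, 16 and 10 on E12.5, 18 and 19.2 on E13.5 and 26 and 22.7 on E14.5. Later it had 14.3 and 22 CPM on E15.5, 12.1 and 17.1 on E16.5, 2.53 and 4.14 on E17.5 and 4.62 and 11 on E18.5. Ptprc (CD45), the phosphatase on all leukocytes, had 1.19 and 0.379 CPM on E10.5, 5.35 and 3.34 on E11.5, 5.67 and 2.71 on E12.5, 2.29 and 3.06 on E13.5 and 8.46 and 9.22 on E14.5. Later it had 7.06 and 9.59 CPM on E15.5, 5.81 and 4.65 on E16.5, 1.01 and 3.53 on E17.5 and 2.90 and 6.07 on E18.5. Both had their lowest library at E10.5 and no overlap of E11.5 with E10.5, with log2 changes of 2.64 ± 0.40 for Laptm5 (adjusted p = 0.000494, edgeR) and 2.45 for Ptprc, and neither passed in a later step.

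Of the 8 macrophage and myeloid genes, the 7 tested were all higher at E11.5 than at E10.5, with a median log2 change of 2.72. Lyz2, lysozyme of macrophages and neutrophils, had 1.56 and 1.00 CPM on E10.5, 30.9 and 15.3 on E11.5, 40.7 and 51.1 on E12.5, 26.2 and 27.6 on E13.5 and 40.6 and 55.9 on E14.5. Later it had 43.0 and 83.9 CPM on E15.5, 86.2 and 47.3 on E16.5, 13 and 40.4 on E17.5 and 38.6 and 56.5 on E18.5. It rose by log2 4.15 ± 0.57 at E11.5 (adjusted p = 0.000276, edgeR) and kept no order among the later stages. Tyrobp, a signalling adaptor of myeloid receptors, had 1.03 and 0.276 CPM on E10.5, 5.75 and 3.03 on E11.5, 5.34 and 4.55 on E12.5, 7.06 and 6.41 on E13.5 and 8.26 and 6.90 on E14.5. Later it had 6.25 and 7.84 CPM on E15.5, 5.59 and 6.94 on E16.5, 1.62 and 2.62 on E17.5 and 1.99 and 3.37 on E18.5. Its change at E11.5 was log2 2.72. Fcer1g, the γ chain of Fc receptors, had 0.562 and 0.517 CPM on E10.5, 3.95 and 1.38 on E11.5, 2.15 and 2.46 on E12.5, 3.09 and 3.57 on E13.5 and 5.23 and 3.94 on E14.5. Later it had 2.80 and 6.15 CPM on E15.5, 4.31 and 4.10 on E16.5, 0.909 and 1.41 on E17.5 and 1.90 and 3.15 on E18.5. Its change at E11.5 was log2 2.28. For both adaptors the E17.5 libraries lay below those of E16.5, a step that was not tested.

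The remaining macrophage genes Cd5l, Marco and Emr1 each had their highest library at E16.5. Cd5l, a secreted protein of tissue macrophages, had 0 and 0 CPM on E10.5, 1.25 and 0.311 on E11.5, 1.00 and 2.61 on E12.5, 2.29 and 3.12 on E13.5 and 9.28 and 9.91 on E14.5. Later it had 13.4 and 18.2 CPM on E15.5, 6.97 and 25.2 on E16.5, 1.31 and 0.606 on E17.5 and 1.09 and 4.84 on E18.5. It had 32 reads at E11.5 and 0 at E10.5 (at least 15.3-fold higher), was higher at E14.5 than at E11.5 (log2 3.63) and lower at E18.5 than at E16.5 (log2 -2.47 ± 0.72, adjusted p = 0.022, edgeR). Marco, a scavenger receptor, had 0.0312 and 0 CPM on E10.5, 0.550 and 0.356 on E11.5, 0.778 and 1.84 on E12.5, 6.45 and 5.96 on E13.5 and 7.43 and 6.78 on E14.5. Later it had 9.46 and 14 CPM on E15.5, 3.93 and 17.3 on E16.5, 0.909 and 0.808 on E17.5 and 2.54 and 4.95 on E18.5. It had 19 reads at E11.5 and 1 at E10.5 (ratio 27.3, counting interval 4.34 to 1134), and was higher at E14.5 than at E11.5 (log2 3.96). Emr1 had 1.25 and 0.552 CPM on E10.5, 5.35 and 2.18 on E11.5, 2.71 and 2.40 on E12.5, 2.76 and 3.96 on E13.5 and 9.68 and 7.42 on E14.5. Later it had 10.9 and 6.76 CPM on E15.5, 2.88 and 11 on E16.5, 0.505 and 0.606 on E17.5 and 0.543 and 1.24 on E18.5. It was higher at E11.5 than at E10.5 (log2 2.04 ± 0.61, adjusted p = 0.0378, edgeR) and lower at E18.5 than at E16.5 (log2 -2.99 ± 0.69, p = 0.00475), and E16.5 library 2 stood well above library 1 for all 3 genes.

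Csf1r, the receptor for macrophage colony-stimulating factor, went the other way from Emr1, Cd5l and Mpo at the end of gestation. It had 4.53 and 2.14 CPM on E10.5, 20.3 and 8.37 on E11.5, 9.19 and 8.18 on E12.5, 12.2 and 14 on E13.5 and 21 and 14.8 on E14.5. Later it had 19.6 and 13.6 CPM on E15.5, 11.7 and 18.0 on E16.5, 64.6 and 32.8 on E17.5 and 76.5 and 22.5 on E18.5. All 4 libraries of E17.5 and E18.5 exceeded every earlier library. It was higher at E11.5 than at E10.5 (log2 2.09 ± 0.56, adjusted p = 0.0219, edgeR) and higher at E18.5 than at E16.5 (log2 1.74 ± 0.53, p = 0.0249). Without TMM scaling, E18.5 had 42.1 and 13.9 CPM against 9.30 and 15.3 CPM at E16.5, a log2 change of 1.18, and the libraries overlapped. Genes of other cells moved in the same step: Stab2, a scavenger receptor of sinusoidal endothelium, averaged 63.2 ± 2.25 TMM CPM at E18.5 and 7.46 ± 2.27 at E16.5, the cholangiocyte gene Spp1 55.0 ± 41.7 and 5.93 ± 3.27, and Epcam 7.84 ± 0.44 and 1.88 ± 0.70 (SD, n = 2 each). Their part in the Csf1r value was not tested. Of the 4 members called in this step, 0 passed without E16.5 library 2 or without E18.5 library 1, and the log2 change of Csf1r without 1 library ranged from 0.59 to 2.36.

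At E11.5 the 2 libraries differed in kind. Library 2 had more of the globins and red cell genes, at 148 and 65.7 TMM CPM against 38.1 and 21.3 in library 1, and library 1 had more of the granule enzymes and macrophage genes, at 154 and 68.0 against 83.0 and 30.9. Red and white cell genes therefore did not move as 1 block between the libraries of E11.5. At E12.5, E13.5 and E14.5, library 1 had more of the globins, the red cell genes and the granule enzymes alike. At E15.5 library 1 had more of the red cell genes and library 2 more of the granule enzymes. With E10.5 library 2 left out, 11 members passed at E11.5 against E10.5, as did 14 without E10.5 library 1, 15 without E11.5 library 1 and 16 without E11.5 library 2. Mpo, Elane, Prtn3, Lyz2, Laptm5, Tyrobp, Ermap, Gata1, Rhag and Hbb-bs passed in each of these fits. At E14.5 against E11.5, 8 members passed without E11.5 library 1 or without E14.5 library 1, 16 without E11.5 library 2 and 18 without E14.5 library 2, and Ctsg, Elane, Marco, Slc4a1 and the 3 embryonic globins passed in each fit. With plain CPM in place of TMM, the median of all genes shifted by log2 -0.18, -0.26, -0.50 and -0.49 in the 4 steps, and each called member kept its direction.

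Many other genes of the same lineages moved with the members in bulk, but their lists did not always do so in sum. Of 11 other red cell membrane genes tested, 8 were higher at E11.5, among them Kel (log2 3.68) and Rhd (3.33), 9 were higher at E14.5, and 8 were lower at E16.5, among them Add2 (-2.92), Ank1 (-2.86) and Kel (-2.31). Of 12 other red cell regulators, 7 were higher at E11.5, led by Nfe2 (log2 3.50), Car2 (2.86) and Gfi1b (4.08), 6 higher at E14.5, and 6 lower at E16.5, led by Gfi1b (-3.31), Tal1 (-2.98) and Bcl11a (-2.78). In sum, however, these regulators had 331 and 310 TMM CPM at E10.5 and 270 and 343 at E11.5. All 10 other granulocyte genes were higher at E11.5 than at E10.5, with S100a8 (log2 8.93), S100a9 (7.56) and Fcnb (6.99) in front. In sum these had 233 and 219 TMM CPM at E14.5 and 238 and 489 at E18.5. The granule enzymes had 388 and 255 at E14.5 and 52.9 and 134 at E18.5. Of 6 megakaryocyte and platelet genes tested, 5 were higher at E11.5 and 0 passed later. Of 9 stem and progenitor genes, 5 were higher and 1, Mecom, lower at E11.5, and Lmo2 (log2 -2.05) and Myb (-1.96) were lower at E16.5. The 4 mast cell genes tested were all lower at E18.5 than at E16.5, among them Hdc (-2.94), Mcpt8 (-4.34) and Cpa3 (-4.32).

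Macrophage genes outside the members were divided. Of 11 tested, 4 were higher at E11.5, 1 at E14.5 and 1 at E16.5, the iron exporter Slc40a1 (log2 1.08), which hepatocytes also express. At E18.5, Timd4 (log2 -3.19) and Cx3cr1 (-2.88) were lower. The endothelial list had 3 genes higher at E18.5, Stab2, Pecam1 and Lyve1. Of 5 lymphocyte genes tested, only Ighm passed in these 4 steps, higher at E14.5 and at E18.5, and the list summed to 0.445 to 10.7 TMM CPM over the 18 libraries. Of 8 haem synthesis genes, whose products hepatocytes also make, 2 were higher at E11.5 and 3 at E14.5.

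Bulk samples held far more of these transcripts than the hand-picked cells of the same gate and day. At E10.5 the members summed to 177 CPM in the mean bulk library, against 7.98 CPM in 54 pooled DLK1-sorted cells. At E14.5 the values were 884 CPM in bulk and 20.7 in 27 cells, and at E17.5 212 CPM in bulk and 14.8 in 35 cells. These are CPM without TMM. Bulk was over 10-fold above the cells, counting a gene without reads at a floor of 3 reads over the group, for 13 of 29 members at E10.5, 22 at E11.5, 24 at E12.5, 24 at E13.5, 22 at E14.5, 20 at E15.5 and 15 at E17.5. The share of all genes that were over 10-fold higher in bulk was not counted. Whether these counts are particular to blood cell genes is therefore not known. Of the genes of the sorted cells themselves, at E14.5 bulk held 0.701 times the pooled Afp level of the cells, 1.60 times that of Alb, 0.535 times that of Ttr and 4.57 times that of the sort marker Dlk1, which is more than for some of the members. The 2 kinds of library differ in protocol as well as in picking, so method and cell content cannot be told apart.

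At E14.5, Mpo had 370 and 203 CPM in bulk and 1.42 CPM in the pooled cells, a ratio of 202 (counting interval 151 to 276). Slc4a1 had 69.4 and 24.4 CPM in bulk and 4 reads in the cells, a ratio of 380, and Lyz2 had 51.2 and 59.3 CPM in bulk against 0.555 in the cells, a ratio of 99.6. For Csf1r, bulk had 26.5 and 15.7 CPM and the cells 0 reads, at least 228-fold higher in bulk. Not all members were so far apart. Hbb-bs had 67.9 and 38.3 CPM in bulk and 3.36 in the cells, a ratio of 15.8, Gata1 a ratio of 11.8, Hba-a2 3.60 and Alas2 2.99. At E10.5 the embryonic globins were in bulk alone: Hbb-y had 76.4 and 48.3 CPM in bulk and 0 reads in 54 cells (at least 1183-fold), Hbb-bh1 at least 697-fold and Hba-x at least 686-fold. Epor and Prtn3 were not above the cells at that stage: Epor had 1.30 and 1.48 CPM in bulk against 2.07 in the cells, and Prtn3 2.21 and 1.65 against 2.99.

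**Figure D3:**
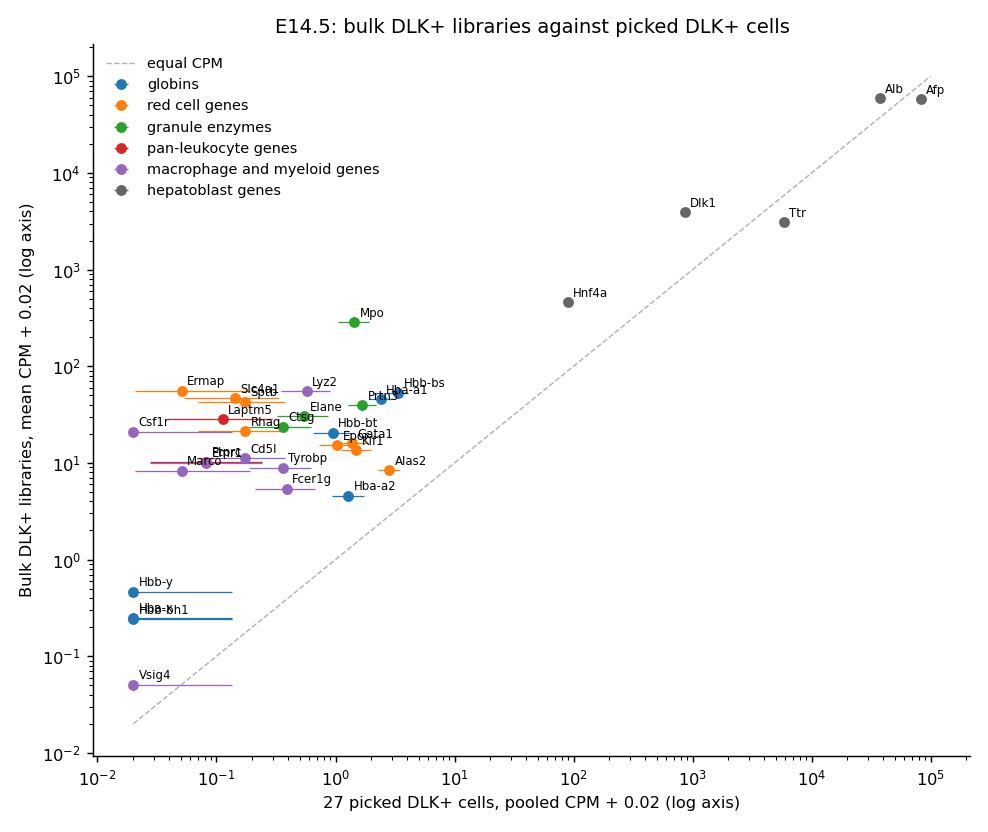
Level of each member and of 5 hepatoblast genes at E14.5, in the mean of 2 bulk libraries (vertical) against 27 pooled picked cells (horizontal), both in CPM without TMM plus 0.02 on log axes, with exact 95% intervals of the cell counts as bars and a dashed line at equal CPM. The members lie above the line, Mpo 202-fold and Alas2 2.99-fold, though Vsig4 had 1 read in bulk and none in the cells. Of the hepatoblast genes, Alb and Afp lie near the line, Ttr below it, and the sort marker Dlk1 above it, farther than Alas2.

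Cell by cell, blood transcripts were spread thinly over the picked embryo cells. Of the 447 embryo cells, 24 had at least 10 CPM of globins in sum (5.37%, exact interval 3.47% to 7.88%), with a highest cell of 187 CPM. Red cell genes reached 10 CPM in 77 cells (17.2%), granule enzymes in 57 (12.8%), macrophage and myeloid genes in 52 (11.6%) and pan-leukocyte genes in 2 (0.447%), both of them E11.5 EpCAM+ hepatoblasts. Thinning each cell to 700000 reads left a read of a globin in 26.8% of cells, against 30.4% without thinning. No embryo cell reached 10 CPM of Mpo, Elane, Ctsg, Ermap, Rhag, Ptprc, Marco, Emr1, Hbb-y or Hbb-bh1, and Hba-x and Vsig4 had no read in any of the 529 cells. For 0 of the 447 embryo cells the exact interval reaches 0.822%. The shares at or above 10 CPM rested on few genes: 51 of the 57 cells with granule enzymes had Prtn3, 43 of the 52 with macrophage genes had Csf1r, and Epor and Alas2 were in 28 cells each, Klf1 in 15 and Hbb-bs in 12.

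Which members met in a cell differed by list. Of 12 cells with at least 10 CPM of Hbb-bs, 8 also had 10 CPM of Hba-a1 or Hba-a2, against 3 of the other 435 cells. Of the 24 cells with globins, 12 had 10 CPM of red cell genes, against 65 of the other 423. For Prtn3 the 10 CPM line leaves little to compare: 0 of 51 cells with it had 10 CPM of the other granule enzymes in sum, against 3 of 396 without it. At least 1 read of them was in 12 of the 51 cells. Of 43 cells with Csf1r, 0 had 10 CPM of the other myeloid and pan-leukocyte members in sum, against 11 of 404, and 12 had at least 1 read of them. The shares with such a read among the other cells were not counted. Epor was with globins in 3 of 28 cells, Alas2 in 7 of 28, and Klf1 in 0 of 15. Among the embryo cells highest in red cell genes was an E15.5 EpCAM+ hepatoblast with 119 CPM, of which Alas2 gave 67.7, Slc4a1 27.5 and Epor 22.6, with 44.2 CPM of globins and 86039 CPM of Alb. A further cell of this kind was 1 of the 2 E11.5 EpCAM+ cholangiocytes, with 78.1 CPM of Hbb-bs, 24 of Hba-a1 and 22.2 of Gata1.

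Csf1r was the member that set cholangiocytes apart from DLK1-sorted cells. It reached 10 CPM in 3 of 17 cholangiocytes at E14.5 (17.6%), 14 of 36 at E15.5 (38.9%) and 21 of 34 at E17.5 (61.8%), against 0 of 27, 0 of 39 and 4 of 35 DLK1-sorted cells of those days. By set, cholangiocytes had 4.72, 0 and 19.7 CPM at E14.5, 8.97, 46.2 and 23.6 at E15.5 and 25.8, 24.1 and 48.8 at E17.5. The DLK1-sorted sets had 0, 0 and 0 CPM at E14.5, 0.144, 0.108 and 0.0486 at E15.5, and 6.47, 3.84, 0 and 2.31 at E17.5. All but 1 of the cholangiocyte sets were above the sets of the other gate of the same day, and at E14.5 1 set had no read. Over the 3 days, Csf1r held 2316 reads in 87 cholangiocytes (23.8 CPM) and 163 in 101 DLK1-sorted cells (1.41 CPM), and its log2 change was 6.46 ± 1.01 (adjusted p = 3.81e-05, edgeR on reads summed by set). It was the only 1 of 19 members tested that was higher in cholangiocytes, where 19% of all genes tested were, and 5 members were lower, where 16% were. It passed with any 1 set left out, with log2 changes of 5.85 to 6.69. Its difference between the effects at E17.5 and E14.5 was log2 -7.08 ± 2.52 (adjusted p = 0.155, edgeR). The DLK1-sorted sets of E14.5 held 0 reads of it. The sizes of this difference and of the log2 change over the 3 days therefore depend on how the fit treats 0 reads. The pooled levels of the 3 days had a ratio of 16.9.

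**Figure D4:**
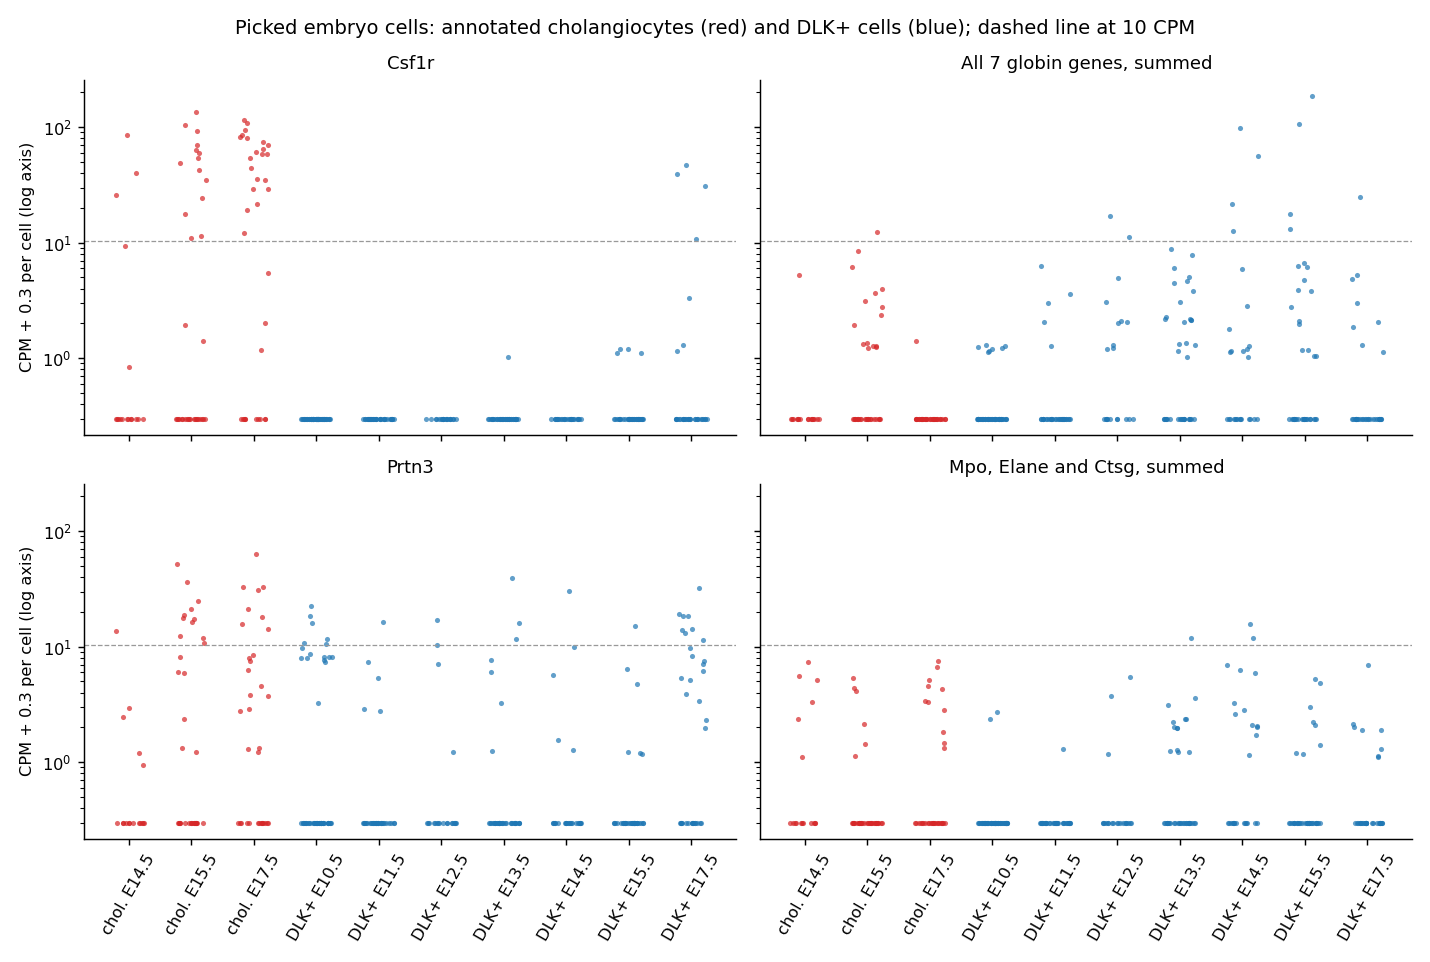
Csf1r, the 7 globins in sum, Prtn3, and Mpo, Elane and Ctsg in sum, in each picked cholangiocyte (red) and DLK1-sorted cell (blue) by embryonic day, in CPM plus 0.3 on a log axis, with a dashed line at 10 CPM; each point is a cell. Csf1r passes the line in 21 of 34 cholangiocytes and 4 of 35 DLK1-sorted cells of E17.5, and globins reach 187 CPM in a DLK1-sorted cell of E15.5.

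In the same cholangiocytes the other macrophage and pan-leukocyte members were rare, with Tyrobp at 10 CPM in 1 of the 87 and none of the rest in any. Pan-leukocyte genes reached 10 CPM in 0 of the 87, which allows a share of up to 4.15% by the exact interval, and their highest cell had 1.11 CPM. The shares of cells with at least 1 Csf1r read were 51.7% and 10.9%, and after thinning 49.4% and 7.92%, in cholangiocytes and DLK1-sorted cells. The cells highest in macrophage and myeloid genes among the embryo cells were cholangiocytes of E15.5 and E17.5, at 135 and 116 CPM, all of it Csf1r. Csf1r shares 873 bases of exon with Hmgxb3 on the other strand. The protocols name a directional kit for the bulk libraries and Smart-seq2 for the cells. Whether the counting used strand is not given in the sources used here. Hmgxb3 reached 10 CPM in 21 of the 43 cells with Csf1r and in 230 of the other 404. In DLK1-sorted cells, Csf1r had 163 reads in 74 cells of E15.5 and E17.5 and 0 in 90 cells of E10.5 and E11.5, at least 62.1-fold higher late than early (adjusted p = 0.00182, edgeR).

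The adult globins moved the other way across cell types, and in DLK1-sorted cells they were higher late than early, with lower values again on the last day. All globins pooled to 0.123 CPM on E10.5, 0.391 on E11.5, 2.21 on E12.5, 1.44 on E13.5, 7.93 on E14.5, 8.78 on E15.5 and 1.26 on E17.5. Late cells, of E15.5 and E17.5, had 5 of the 19 members tested higher than early cells of E10.5 and E11.5 and 0 lower, against 15% and 16.6% of all genes. Hbb-bs had 1.36, 0 and 8.60 CPM in the sets of E15.5 and 0.353, 0.659, 0 and 2.47 at E17.5, against 0, 0.170 and 0 at E10.5 and 0.113, 0.0720 and 0.449 at E11.5. The late sets overlapped the early ones, and 1 set of E15.5 held most of the reads, 62.1% of them in 1 cell. In sum it had 223 reads in late cells and 10 in early cells, a log2 change of 4.60 ± 1.28 (adjusted p = 0.00573, edgeR). Hba-a1 had 96 and 6 reads (log2 3.66 ± 1.31, adjusted p = 0.0328, edgeR), Hba-a2 49 and 3 (ratio 18.7, counting interval 6.02 to 93.6) and Hbb-bt 66 and 0 (at least 25.1-fold). Csf1r and Hbb-bs passed with any 1 set left out, and 2 members passed without E15.5 set 4 or without E17.5 set 4, and 3 without any 1 of the E10.5 sets or E11.5 sets 1 and 2. With the set number as a block, Csf1r alone passed and no globin did.

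In cholangiocytes against DLK1-sorted cells of E14.5 to E17.5, the 4 adult globins and Gata1 were lower. Hbb-bs had 26 reads in 87 cholangiocytes and 332 in 101 DLK1-sorted cells (0.267 and 2.87 CPM), a log2 change of -4.25 ± 1.07 (adjusted p = 0.00224, edgeR). Hba-a1 had 12 and 173 reads (log2 -5.34 ± 1.26, adjusted p = 0.00133, edgeR), Hba-a2 6 and 90 (log2 -4.98, p = 0.00625) and Hbb-bt 13 and 96 (log2 -3.51, p = 0.0464). Gata1 had 0 and 47 reads, at least 13.2-fold lower in cholangiocytes, and 43 of the 47 came from 1 cell of E14.5 set 3. Without that set, 3 of the 6 members passed, Csf1r, Hbb-bs and Hba-a1, and the calls for Gata1 and Hbb-bt were lost in 11 of 19 fits that left out 1 set. Between the EpCAM+ and the DLK1 gate within annotated hepatoblasts of E11.5 to E14.5, 0 members passed, against 0.0238% of all genes, and 0 by DESeq2. At an unadjusted p under 0.05 stood 826 of all genes, and DESeq2 called 66. Mpo stood at log2 -1.93 ± 1.37, Hbb-bs at -1.53 ± 1.01 and Klf1 at 1.85 ± 1.17.

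Prtn3 was the granule enzyme of the picked cells. It had 1518 reads in 138 of the 447 embryo cells, against 220 of Mpo, 52 of Elane and 37 of Ctsg. In each bulk library the order of Prtn3 and Mpo was the reverse, in reads that are not scaled for length in either kind of library. The pooled Prtn3 level was 8.14 CPM in E17.5 cholangiocytes and 5.81 in E17.5 DLK1-sorted cells, 6.72 and 0.663 at E15.5, and 1.01 and 1.67 at E14.5, and the change over the 3 days did not pass (log2 0.62 ± 0.75, adjusted p = 0.626, edgeR). The highest embryo cells were cholangiocytes of E17.5 and E15.5, at 63.2 and 51.1 CPM of granule enzymes, all of it Prtn3. The E17.5 cell had 63929 CPM of Alb, 5.74 of Spp1 and no read of Krt19, with 286 of Epcam and 12.4 of Sox9, so that its markers were mixed. Prtn3 shares 159 bases of exon with Plppr3 on the other strand, and Plppr3 reached 10 CPM in 26 of the 51 cells with Prtn3 and in 91 of the other 396. Its reads and those of Plppr3 cannot be told apart there if the libraries of the cells or the counting ignored strand. For Alas2 and Apex2, which share 311 bases, the counts were 17 of 28 and 262 of 419. Whether such reads add to these members was not tested.

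A pair of explant cells carried globins at levels of a different order from all other cells. In the TPPB explants, the DLK1-sorted cells pooled to 2048 CPM of globins and the EpCAM+ cholangiocytes to 560, against 17.4 and 23.4 in the carrier controls. Without their highest cell those 2 TPPB groups had 33.8 CPM in 5 cells and 0.557 CPM in 21 cells. The highest DLK1-sorted cell had 12863 CPM of globins, of which Hbb-bs gave 5922, Hbb-bt 2770, Hba-a1 2677 and Hba-a2 1494, with 2234 CPM of red cell genes, among them 806 of Slc4a1, 400 of Rhag, 335 of Alas2, 232 of Klf1, 210 of Ermap, 121 of Sptb and 101 of Gata1. It also had 46732 CPM of Alb and 84397 of Afp. It held reads in 9033 genes, the most of the 6 cells of its group. Red cell and hepatoblast transcripts thus stood together in its library. Whether they came from the same cell was not tested.

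The highest EpCAM+ cell differed from it. It had 13048 CPM of globins, of which Hbb-bs gave 5005, Hba-a2 3624, Hba-a1 2915 and Hbb-bt 1504, with 129 CPM of Alas2 and no read of Slc4a1. It was also the highest cell of all 529 in pan-leukocyte genes, at 122 CPM, and in macrophage and myeloid genes, at 242, with 131 CPM of Fcer1g, 99.3 of Laptm5, 59.2 of Csf1r, 26.7 of Tyrobp, 24.8 of Emr1 and 22.9 of Ptprc. Its cholangiocyte genes were present, with 19515 CPM of Spp1, 1162 of Epcam and 833 of Sox9, and its Krt19, at 52.5, was the lowest of its group. Its library held reads in 8327 genes, where the 22 cells of its group had 8043 to 11267. For this library too, whether the blood and cholangiocyte transcripts came from the same cell was not tested. The next cells in pan-leukocyte genes were also EpCAM+ cells of TPPB explants, at 74.6 and 61.2 CPM. The highest cell in granule enzymes was another of that group, at 67.5 CPM, of which Ctsg gave 49.7. The third highest in globins was a control EpCAM+ cell at 217 CPM.

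**Figure D5:**
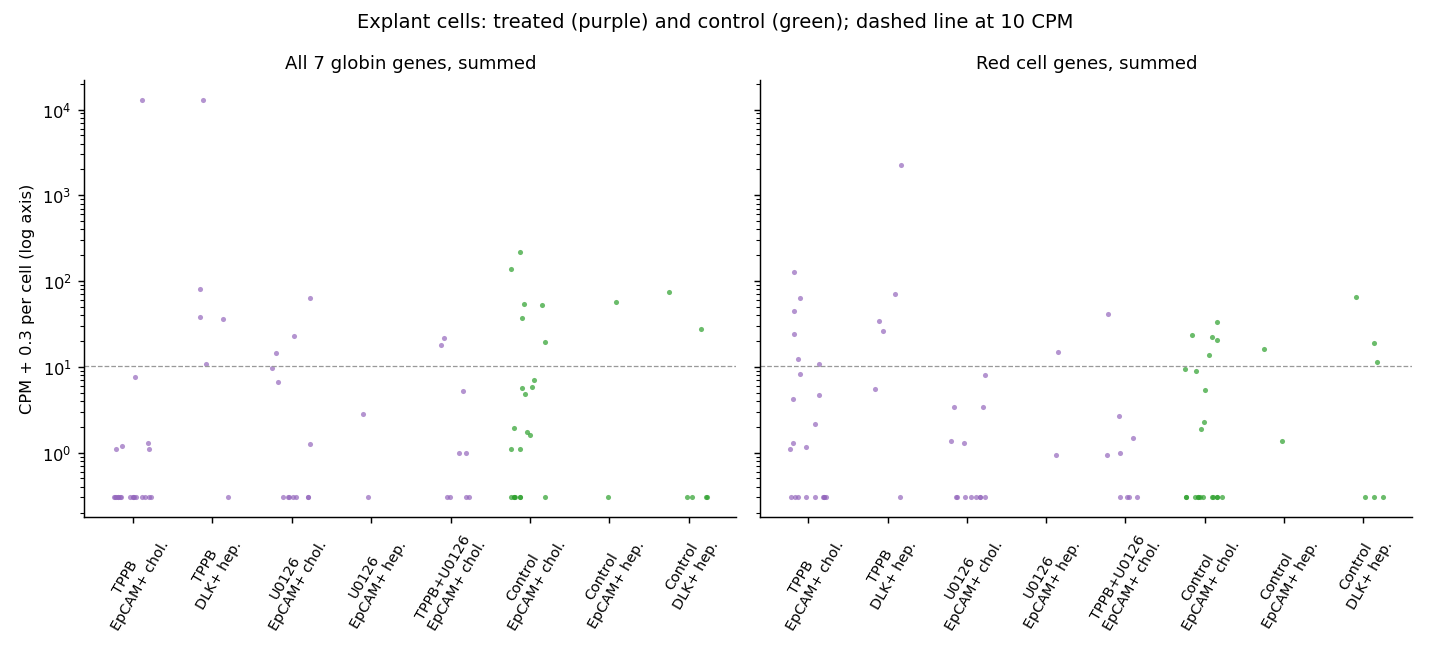
Globins (left) and red cell genes (right) in sum in each explant cell, in CPM plus 0.3 on a log axis, by treatment, gate and putative type, with treated cells in purple, controls in green and a dashed line at 10 CPM. The TPPB groups each have 1 cell far above the rest in globins, at 13048 CPM in the EpCAM gate and 12863 in the DLK1 gate, and the next highest cell of all groups is a control at 217 CPM.

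Globins at 10 CPM or more were found in 1 of 22 EpCAM+ cholangiocytes with TPPB, 3 of 13 with U0126, 2 of 9 with both and 6 of 22 controls. In DLK1-sorted cells, 5 of 6 with TPPB and 2 of 6 controls reached 10 CPM, and all 6 TPPB cells came from 1 set. Control explant cholangiocytes, set against E14.5 embryo cholangiocytes, had 0 of 12 members past the threshold, where 2.86% of all genes passed, although Hba-a1 stood at log2 8.76 ± 2.65 (adjusted p = 0.132, edgeR). DESeq2 called 2 there, Hba-a1 and Hba-a2. The E14.5 embryo cholangiocyte sets held 0 reads of either gene, so the sizes of these changes depend on how a fit treats 0 reads. TPPB against control had 0 of 12, where 2.93% of all genes passed, with Hbb-bs at log2 3.35 ± 2.15 (adjusted p = 0.549, edgeR) and a median of 3.53 over the 12 members. Without the 2 highest globin cells, an alternative added after the data were seen, the median over 11 members was -0.38, and 0 passed. U0126 against control had 0 of 12, where 0.0% of all genes passed by edgeR, 319 genes were at an unadjusted p under 0.05 and DESeq2 called 56. Csf1r pooled to 3.52 CPM with TPPB, 6.93 with U0126, 2.72 with both and 2.90 in control cholangiocytes.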

How the data were processed

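Bulk RNA-seq of 18 samples and RNA-seq of 529 single cells were analysed from deposited tables of counts, the authors' whole-number reads per gene. Per the submitters' processing notes, TopHat2 2.1.0, Bowtie2 and HTSeq 0.6.0 were used, on GRCm38/mm10. Per the labels' protocols, bulk libraries used a directional poly(A) kit and cells Smart-seq2 with no molecular identifiers, so reads are not independent molecules. Whether reads were counted by strand is not given in the sources used here. The deposited tables of normalized values were not used.

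Genes passed edgeR's filterByExpr at a minimum count of 10 and were fitted by edgeR 4.0.16 (R 4.3.3, limma 3.58.1), with TMM factors, quasi-likelihood tests and Benjamini-Hochberg adjustment over all genes tested (15275 in bulk, 16838 in embryo cells, 14132 in explants, an adjusted p of 0.05). The bulk fit used all 18 libraries. Reads of cells were summed by stage, gate, putative type and set into 46 embryo and 16 explant sums. These counts include sums of fewer than 2 cells. Only sums of at least 2 cells were used as samples in the tests. The labels tie neither sets nor libraries to separate animals, so p-values measure the spread between these sums and libraries only. Set and replicate numbers were not used to pair samples in the main fits. Correlations of same-numbered deviations were above 0.1 in 12 of 72 bulk pairs, 5 of 20 of the embryo cells and 0 of 13 of the explants. Doublets were not called. Cells were picked by hand, and whether a library also held RNA of another cell was not tested. Shares carry exact 95% intervals, thinning was to 700000 reads per cell, and floors are 3 reads over a group, covering counting error only.

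The members and the 13 other lists (116 genes, 115 found) were chosen with earlier results of these data known. Members that passed a bulk test or reached 10 CPM in a group are named, and of each other list the called genes with the smallest p, up to 3 a direction, apart from some that are not reported here. The E11.5 cells described 1 by 1 outside the 3 highest per list were chosen after their values were seen. Alternatives were DESeq2 1.42.0, its size factors, no filter, plain CPM, the number as a block, other minimum cells per sum, leaving out the second deposit round (told by the form of the labels) and leaving out each library or set. The scripts were tested on simulated data. Python 3.11.15, pandas 2.3.3, scipy 1.17.1 and matplotlib 3.10.9 were used.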

Additional observations from a re-analysis of the deposited data

Results flagged for a closer look

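Globins in the DLK1-sorted cells of TPPB explants pooled to 2048.44 CPM, against 17.4 CPM in the DLK1-sorted control cells. The value was picked out because no test of the report uses these cells and it stands above the controls. It rested on 1 of 6 cells: without that cell the other 5 pooled to 33.8 CPM. In the 5 pairs of a list and a group with enough sets for the check, no set stood apart from the others by Dixon's criterion.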

How the results depend on the processing

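Directions held: of 640 values of called members under alternatives, 509 kept direction and side of the threshold, 131 no longer passed and 0 reversed. Only members called in the main fits entered these values, and the fits share most of their samples, so a reversal was unlikely from the start. Without a filter on low counts, 10 members were called at E16.5 against E14.5 and 12 at E18.5 against E16.5, and in the explants 3 for control against E14.5 and 2 for TPPB. DESeq2 called 2 for control against E14.5. Leaving out the second deposit round left 3 called in cholangiocytes against DLK1-sorted cells. Leaving out 1 library or set gave 27 to 28 members called over all stages, 11 to 16 at E11.5, 8 to 18 at E14.5, 0 to 7 at E16.5, 0 to 5 at E18.5, 2 to 5 for late against early cells and 3 to 6 for cholangiocytes, and the cause of these changes was not tested. Without Hba-a1 and Hba-a2, the mean embryonic share of globin reads was 99.5%, 86.4%, 6.4%, 2.64%, 1.19% and 1.28% from E10.5 to E15.5, and with reads per length it was 4.38% at E12.5 and 0.779% at E14.5.

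Correlations of same-numbered deviations ran from -0.475 to 0.395 in bulk, from -0.00406 to 0.223 in embryo cells (median 0.0533) and from -0.117 to 0.0596 in explants. With a replicate block, 27 members were called over all stages, 20, 16, 5 and 3 in the 4 bulk steps, 1 for late against early cells (Csf1r, log2 6.22), 4 for cholangiocytes, and 0 for the EpCAM+ gate and each explant comparison. Depth limits the cell values, where many members rest on under 100 reads.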
